A study of Mus musculus with 26 samples.

Results

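Cholesterol synthesis, fatty acid synthesis and the liver X receptor (LXR) pathway were followed through 36 genes, listed by name from pathway knowledge by a rule that uses no measured value. The list was drawn up with earlier results of these data known. All 36 were found among the 24848 gene symbols of the deposited tables, and all 36 were among the 13500 genes that passed the filter on low counts. They comprise 8 genes of the mevalonate arm, 11 of the sterol arm, 6 of SREBP control and sterol transport, 6 of the LXR pathway and 5 of fatty acid synthesis. Levels are given in CPM, a gene's count relative to its library's TMM-scaled total. Differences are log2 fold changes ± SE from edgeR's quasi-likelihood test. A gene was called when its p-value, adjusted by Benjamini-Hochberg over all genes tested, was under 0.05.

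Cells make cholesterol from acetyl-CoA through mevalonate and squalene, and the enzymes of this route are induced together by the SREBP transcription factors when membrane sterol is low. INSIG proteins hold SREBP and its escort SCAP in the endoplasmic reticulum when sterol is plentiful. The LXR receptors sense oxysterols and induce the cholesterol exporters ABCA1 and ABCG1 and the LDL receptor degrader MYLIP. Activated, dividing T cells are known to lower LXR signalling and to raise SREBP-driven synthesis.

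The libraries were made from CD4 T cells of C57BL/6 mice with experimental autoimmune encephalomyelitis (EAE), a model of multiple sclerosis, taken on its day 14. Foxp3+ regulatory T cells (Treg) and conventional T cells (Tconv) were purified from the central nervous system (CNS) and from draining lymph nodes (dLN). The knockout mice (icKO) were Foxp3Cre-ERT2 x Tnfrsf1bFlox/Flox, so that tamoxifen-activated Cre, made where Foxp3 is expressed, removes part of the gene of TNF receptor TNFR2. The control mice (Ctrl) were Foxp3Cre-ERT2, and both genotypes therefore carried the Cre and received tamoxifen between days 7 and 14. Tconv cells of icKO mice do not express Foxp3, and their genotype label describes the mouse they came from. The 8 groups were CNS Treg icKO with 3 libraries, CNS Treg Ctrl with 3, CNS Tconv icKO with 4, CNS Tconv Ctrl with 4, dLN Treg icKO with 3, dLN Treg Ctrl with 3, dLN Tconv icKO with 3, of which 2 entered the main fit, and dLN Tconv Ctrl with 3. The labels number the libraries of a group as mouse replicates, which are read here as separate mice, and the animals' age is not stated.

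The main fit held 25 of the 26 libraries, each with 12.4 to 18.5 M counts and 34 to 36 of the 36 genes above 0. The library left out was replicate 3 of dLN Tconv icKO by its label. It was left out because earlier results of these data showed it to stand apart. It had 6005 genes above 0, 20 of the 36 among them, from 7.78 M counts. Its 5 B cell markers summed to 586 TPM, against 4.23 to 6.42 TPM in the other dLN Tconv icKO libraries. Its 10 monocyte and macrophage markers summed to 3115 TPM, against 159 to 209 TPM, and its Tnfrsf1b was at 0.89 TPM, against 43.8 TPM. The fit of all 26 is given beside the results. For 5 CNS Tconv libraries, Ctrl replicates 3 and 4 and icKO replicates 2, 3 and 4, the deposited names begin with the prefix of the other genotype. They were kept in the groups of their labels, and the calls that ended without them are named. Foxp3 reached 10.3 to 30.5 TPM (deposited transcript abundance per length and library total) in Treg libraries and at most 0.62 TPM in Tconv libraries of the main fit. The targeted gene Tnfrsf1b ranged over 98.0 to 169.6 TPM in icKO and 148 to 235 TPM in Ctrl Treg libraries of the CNS. In dLN Treg libraries it ranged over 211 to 218 TPM in icKO and 261 to 306 TPM in Ctrl. Neither difference was called (adjusted p = 0.56 and 1), and the exons between the loxP sites are not given in the sources used here. In CNS Treg libraries 5 T cell markers summed to 4491 to 5888 TPM in icKO and 4466 to 4958 TPM in Ctrl. These libraries also carried transcripts of myeloid cells, with marker sums of similar size. The 10 monocyte and macrophage markers summed to 4636 to 6146 TPM in icKO and 5308 to 7921 TPM in Ctrl, and each of the 10 was above 0 in at least 1 library of either group. In Tconv libraries of the CNS they summed to 46.8 to 328 TPM in icKO and 5.67 to 240.2 TPM in Ctrl. In the dLN they summed to 583 to 1166 TPM in dLN Treg icKO, 161 to 1459 TPM in dLN Treg Ctrl, 159 to 209 TPM in dLN Tconv icKO and 104 to 212 TPM in dLN Tconv Ctrl. In such bulk libraries, fewer cells of a type and less RNA per cell cannot be told apart.

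Scaled to gene length, the 36 genes spanned several orders of level. Acly, which makes cytosolic acetyl-CoA from citrate, was the highest with a median of 136 TPM over 25 libraries and a range of 87.3 to 164 TPM. Ebp, the sterol isomerase, followed with a median of 125 TPM, and Nr1h2, which encodes LXRβ, with 94.6 TPM. These 3 ranges overlapped, as did that of Srebf2, the SREBP gene of cholesterol synthesis, with a median of 85.5 TPM and a range of 55.6 to 120 TPM. Srebf1, the SREBP gene of fatty acid synthesis and a known LXR target, had a median of 43.8 TPM and a range of 26.9 to 56.9 TPM. At the low end, Nr1h3, which encodes LXRα, had a median of 2.64 TPM, Acaca, the acetyl-CoA carboxylase of lipogenesis, 1.45 TPM, and Scd1, a stearoyl-CoA desaturase, 0.14 TPM. Scd1 had no count in 6 of the 25 libraries and at most 111 in any, and Nr1h3 had none in 3. The highest Nr1h3 value, 11.3 TPM, lay below the lowest Nr1h2 value, 58.8 TPM, so LXRβ was the main LXR transcript of these libraries.

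**Figure D1:**
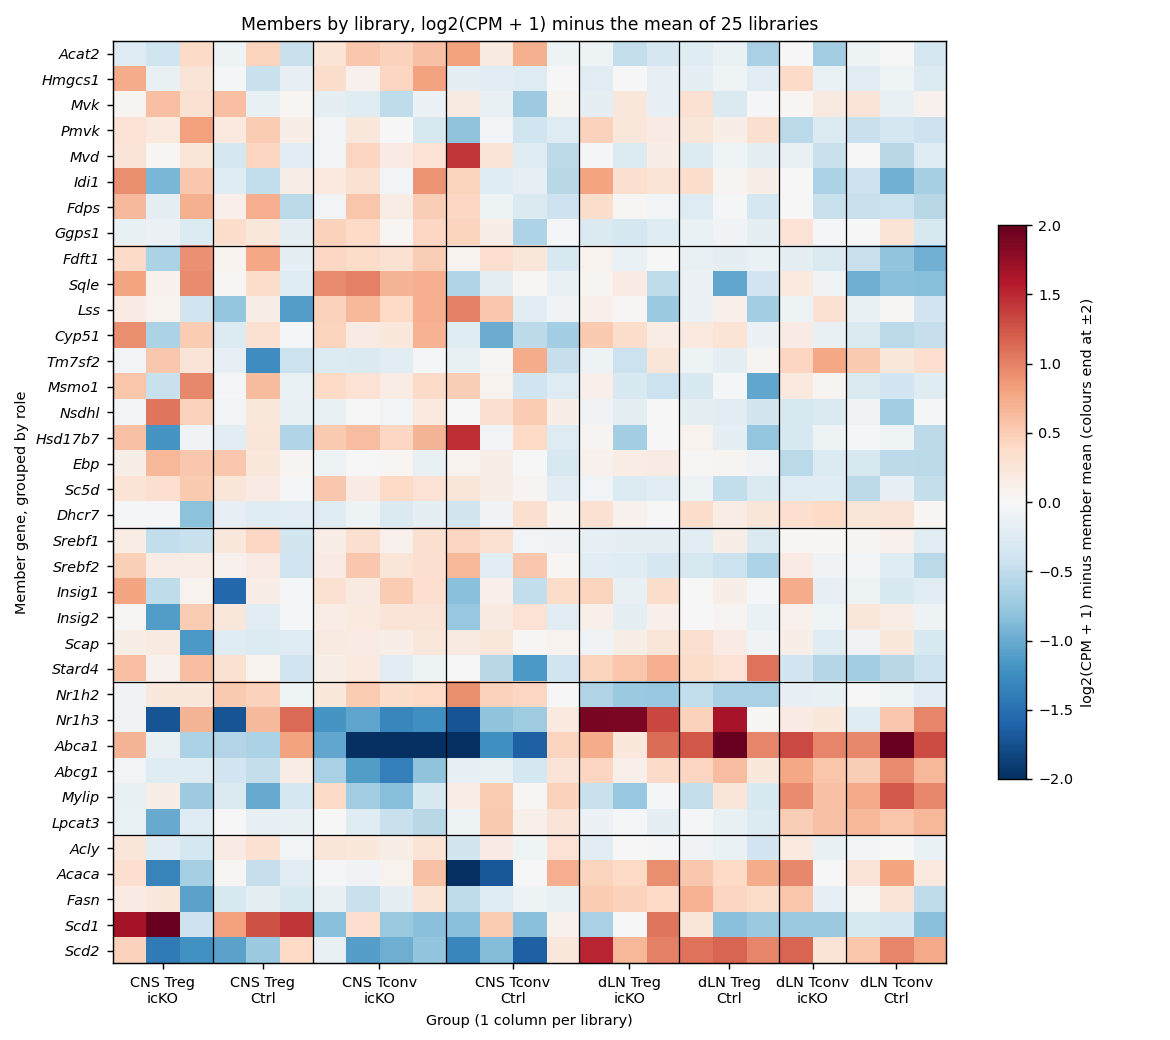
Heat map of the 36 genes (rows, grouped by role) in 25 libraries (columns, grouped by tissue, cell type and genotype), coloured by log2(CPM + 1) minus the gene's mean over the 25 libraries, with the colours ending at ±2. Abca1 and Scd2 are mostly blue in CNS columns and red in dLN columns, and Nr1h2 shows the reverse.

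RefSeq's promoter table for GRCm38.p6 held 29 of the 36 genes, some with more than 1 start and 38 promoters in all, out of 32851. Within 300 bases around each start, on both strands, the sterol response element core TCACNCCAC, the SREBP motif, occurred in 1 of the 38 and in 1.2% of all promoters. The CCAAT box CCAAT, bound by the SREBP partner NF-Y, occurred in 63.2% of the 38 and 37.4% of all promoters, and the E box CACGTG in 18.4% and 7.2%. The LXR element, a direct repeat of AGGTCA with 4 bases between the copies, was sought with no mismatch. It occurred in none of the 38 and in 0.015% of all promoters. A single AGGTCA, which overlaps that element wherever it occurs, was in 15.8% of the 38 and 16.3% of all. The promoters printed here show these motifs. Hmgcs1, which the main fit called in no comparison, holds the only sterol response element core of the 29, Sc5d was higher in the CNS in all groups, and Abca1 and Mylip are LXR targets that were lower there in Tconv cells, Mylip in icKO mice. Each is the 250 bases before the RefSeq start, 5′ to 3′ on the gene's strand, at chr13:119690101-119690350 (plus strand) for Hmgcs1, chr9:42264301-42264550 (minus) for Sc5d, chr4:53159896-53160145 (minus) for Abca1 and chr13:45389492-45389741 (plus) for Mylip. Capitals mark the matched motifs, on either strand.
Hmgcs1: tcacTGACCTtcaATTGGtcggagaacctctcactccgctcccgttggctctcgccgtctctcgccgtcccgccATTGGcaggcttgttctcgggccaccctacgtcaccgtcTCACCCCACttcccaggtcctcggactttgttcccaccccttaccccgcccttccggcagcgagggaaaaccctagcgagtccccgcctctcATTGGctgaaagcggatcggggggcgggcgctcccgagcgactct
Sc5d: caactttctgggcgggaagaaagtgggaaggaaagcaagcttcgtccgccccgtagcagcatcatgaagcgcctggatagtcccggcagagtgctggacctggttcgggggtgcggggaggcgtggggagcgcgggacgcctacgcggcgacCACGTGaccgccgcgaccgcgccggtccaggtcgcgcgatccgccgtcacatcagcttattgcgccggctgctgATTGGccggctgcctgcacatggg
Abca1: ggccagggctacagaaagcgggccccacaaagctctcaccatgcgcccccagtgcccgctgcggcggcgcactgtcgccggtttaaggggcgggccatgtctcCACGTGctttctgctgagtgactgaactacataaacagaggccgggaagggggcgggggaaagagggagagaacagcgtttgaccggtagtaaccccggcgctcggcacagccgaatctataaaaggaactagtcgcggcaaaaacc
Mylip: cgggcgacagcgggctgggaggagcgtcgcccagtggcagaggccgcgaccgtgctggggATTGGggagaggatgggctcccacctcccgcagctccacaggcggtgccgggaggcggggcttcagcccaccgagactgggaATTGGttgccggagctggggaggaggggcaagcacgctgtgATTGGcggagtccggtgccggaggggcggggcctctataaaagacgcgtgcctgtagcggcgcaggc
In Hmgcs1 the TCACCCCAC core lies between CCAAT boxes (ATTGG on this strand), and TGACCT, the AGGTCA motif read on the other strand, stands at the upstream end. Sc5d holds an E box and a CCAAT box, Abca1 an E box, and Mylip 3 CCAAT boxes. Of the genes called between genotypes, described below, Cyp51 has a promoter with a CCAAT box and no sterol response element core. Sqle and Abcg1, the others, are not among the 29. A match is a description of these letters and not a site of binding. Variant copies were not sought, so the lack of a match does not show that a promoter lacks the element.

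The largest called differences among these genes lay between tissues. In CNS cells, compared with dLN cells of the same type and genotype, the desaturase gene Scd2 fell and the sterol desaturase gene Sc5d rose in all 4 comparisons. Nr1h2 was called higher in 3 of the 4, while the cholesterol exporter gene Abcg1 was called lower in 3 of the 4. In the comparison without a call each of these genes moved the same way. Abca1 was called lower in both Tconv comparisons. The LXR target genes Mylip and Lpcat3 were called lower in Tconv cells of icKO mice. The 4 comparisons share no library.

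In icKO Treg cells 5 of 36 were called, 4 higher and 1 lower, against 22.5% of all genes (13.1% higher and 9.41% lower). Ctrl Treg cells had 5 called, 2 higher and 3 lower, against 21.8% (13.3% and 8.55%). Both shares of members, 13.9%, lay under the background, so these counts are no result about the pathway. Tconv cells had 7 called in icKO mice, 1 higher and 6 lower, against 14.1% (7.81% and 6.3%). In Ctrl mice 7 were also called, 4 higher and 3 lower, against 8.9% (5.97% and 2.93%). With all 26 libraries 1, 1, 3 and 0 of the 36 were called in these comparisons, in the same order, against 5.15%, 5.75%, 9.24% and 1.1% of 13054 genes.

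Of the LXR receptors, Nr1h2 (chromosome 7 from 44549616 to 44553951, minus strand, GRCm38) was higher in CNS Treg cells of both genotypes. It had 106, 128 and 128 CPM in CNS Treg icKO libraries, against 72.8, 65.6 and 64.9 CPM in dLN Treg icKO libraries (log2 fold change 0.83 ± 0.18 SE, adjusted p = 0.0018). In Ctrl mice it had 159, 153 and 104 CPM in CNS Treg Ctrl against 78.0, 70.5 and 70.1 CPM in dLN Treg Ctrl (log2 fold change 0.93 ± 0.18 SE, adjusted p = 0.00083). Every CNS Treg library lay above every dLN Treg library in both genotypes, and both calls held with all 26 libraries (adjusted p = 0.024 and 0.0097) and whichever library was left out. In Tconv cells of Ctrl mice it had 211, 153, 147 and 111 CPM in CNS Tconv Ctrl against 109.8, 104 and 94.3 CPM in dLN Tconv Ctrl (log2 fold change 0.60 ± 0.16 SE, adjusted p = 0.027). In Tconv cells of icKO mice it had 128, 158, 141 and 146 CPM in CNS Tconv icKO against 99.1 and 99.8 CPM in dLN Tconv icKO, a difference of 0.52 ± 0.19 (adjusted p = 0.068) that missed the threshold although the groups did not overlap. That Nr1h2 difference was called under 5 alternatives, among them the DESeq2 Wald test (adjusted p = 0.046) and limma (0.0041). Nr1h3 was low in every group and was not called by the main fit. In icKO Tconv cells Nr1h3 was called with the compared groups alone (adjusted p = 0.026). Its log2 fold changes were -2.22 ± 1.23 (adjusted p = 0.2) in icKO Treg, -0.53 ± 1.17 (adjusted p = 0.79) in Ctrl Treg, -2.60 ± 1.26 (adjusted p = 0.19) in icKO Tconv and -1.66 ± 1.12 (adjusted p = 0.37) in Ctrl Tconv cells.

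Among the LXR targets, Abca1 (chromosome 4 from 53030787 to 53159895, minus strand), which exports cholesterol to apolipoprotein A-I, had the largest called difference. In Tconv cells of icKO mice it had 11.6, 2.52, 4.87 and 3.76 CPM in CNS Tconv icKO against 63.8 and 50.1 CPM in dLN Tconv icKO (log2 fold change -3.31 ± 0.66 SE, adjusted p = 0.0013). In Tconv cells of Ctrl mice it had 5.02, 10.1, 7.36 and 34.3 CPM in CNS Tconv Ctrl against 49.9, 158 and 63.6 CPM in dLN Tconv Ctrl (log2 fold change -2.68 ± 0.60 SE, adjusted p = 0.0073). No CNS Tconv library reached the lowest dLN Tconv library in either genotype. The icKO call held with all 26 libraries (adjusted p = 0.00092) and whichever library was left out. The Ctrl call ended without dLN Tconv Ctrl replicate 2 (adjusted p = 0.081). In Treg cells the CNS means were also below the dLN means, with 26.4 ± 12.9 CPM in CNS Treg icKO against 42.4 ± 13.1 CPM in dLN Treg icKO (SD, n = 3 each, log2 fold change -0.68 ± 0.63, adjusted p = 0.47), but neither this nor the Ctrl difference of -1.53 ± 0.64 (adjusted p = 0.089) was called. The Ctrl difference was called without the 5 CNS Tconv libraries (adjusted p = 0.037), by limma (0.03) and with the block within each genotype (0.031).

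Abcg1 (chromosome 17 from 31057675 to 31117988, plus strand), which exports cholesterol to high-density lipoprotein, was lower in the same cells. It had 58.6, 42.0, 35.3 and 52.4 CPM in CNS Tconv icKO libraries, against 159 and 136 CPM in dLN Tconv icKO libraries (log2 fold change -1.65 ± 0.20 SE, adjusted p = 9.7e-06). In Ctrl Tconv cells it had 82.0, 83.4, 72.4 and 111 CPM in CNS Tconv Ctrl against 131, 179.8 and 148 CPM in dLN Tconv Ctrl (log2 fold change -0.81 ± 0.18 SE, adjusted p = 0.0079). The tissues did not overlap in either genotype, and the icKO call held in each alternative tried, all 26 libraries included (adjusted p = 4.3e-05). Ctrl Treg cells had 70.7, 66.5 and 103 CPM in CNS Treg Ctrl against 126, 142 and 107 CPM in dLN Treg Ctrl (log2 fold change -0.64 ± 0.20 SE, adjusted p = 0.024), again with no overlap. The Ctrl Tconv call ended without dLN Tconv Ctrl replicate 2 (adjusted p = 0.073). In icKO Treg cells the values were 88.7, 77.9 and 77.8 CPM in CNS Treg icKO against 126, 98.8 and 121 CPM in dLN Treg icKO, which did not overlap, but the difference of -0.50 ± 0.20 (adjusted p = 0.073) was not called. It was called without the 5 CNS Tconv libraries (adjusted p = 0.045) and with the compared groups alone (0.037).

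Mylip, the ubiquitin ligase that removes LDL receptors, and Lpcat3, which puts polyunsaturated acyl chains into membrane phospholipids, were lower in CNS Tconv cells of icKO mice. Mylip had 56.2, 26.3, 23.4 and 34.5 CPM in CNS Tconv icKO against 83.8 and 65.1 CPM in dLN Tconv icKO (log2 fold change -1.08 ± 0.31 SE, adjusted p = 0.02). Lpcat3 had 76.8, 65.4, 56.6 and 52.1 CPM in CNS Tconv icKO against 109.5 and 116 CPM in dLN Tconv icKO (log2 fold change -0.85 ± 0.19 SE, adjusted p = 0.0038). The CNS and dLN values did not overlap for either gene. In Ctrl Tconv cells the differences, -0.70 ± 0.28 (adjusted p = 0.11) for Mylip and -0.41 ± 0.17 (adjusted p = 0.13) for Lpcat3, did not pass. Lpcat3 shares 10.2% of its exon bases with Emg1 on the other strand, and these libraries carry no strand, so reads from the overlap cannot be assigned. The median log2 fold change of the 6 LXR genes was -1.37 in icKO and -0.76 in Ctrl Tconv cells, and -0.41 in icKO and -0.45 in Ctrl Treg cells, beside all-gene medians of 0.00, -0.01, 0.04 and 0.02.

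**Figure D2:**
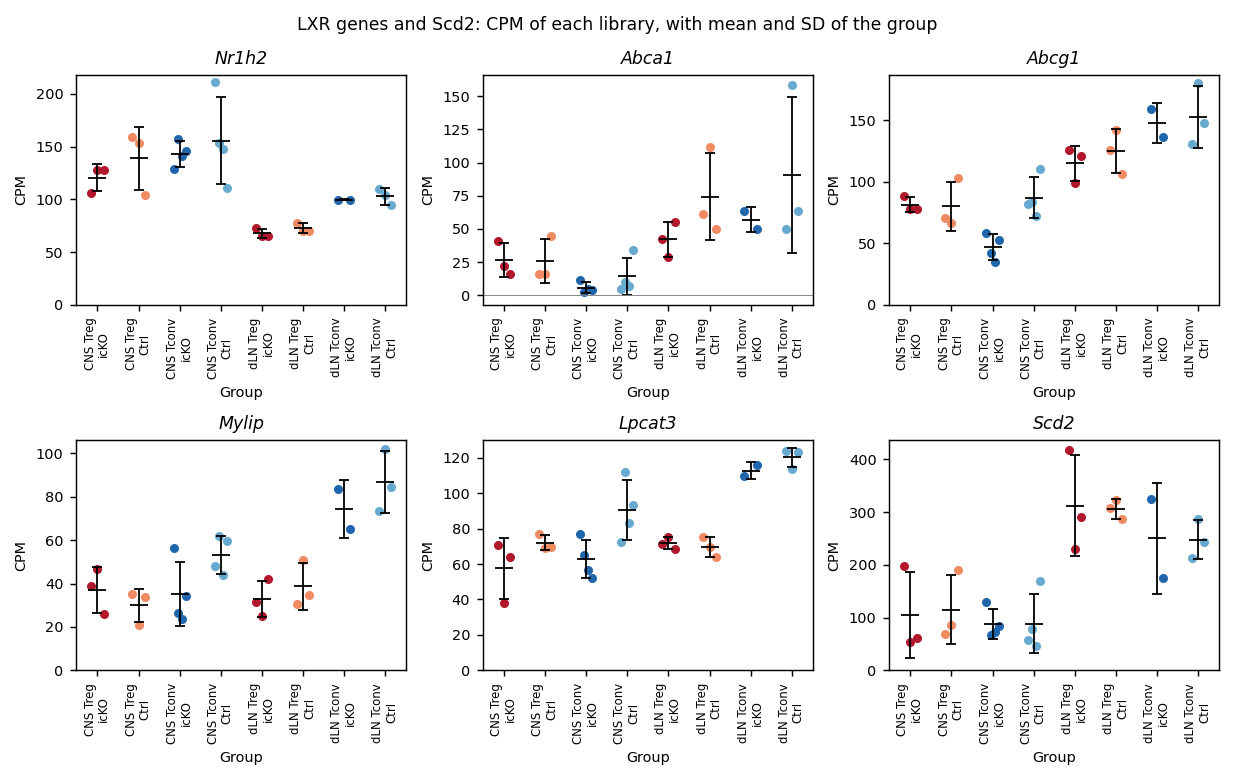
CPM of Nr1h2, Abca1, Abcg1, Mylip, Lpcat3 and Scd2 in each library (points) of the 8 groups on the x axis, with the group mean (long bar) and SD (whiskers) on a linear y axis from 0. The 4 CNS Tconv icKO libraries hold Abca1 values of 2.52 to 11.6 CPM, under every library of the Treg and dLN groups, and all 4 CNS groups lie above the dLN group of the same cell type and genotype in Nr1h2.

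Fatty acid synthesis genes differed between tissues mainly through Scd2 (chromosome 19 from 44293674 to 44306864, plus strand), which introduces the double bond of oleate. It had 199, 53.4 and 61.8 CPM in CNS Treg icKO libraries, against 418, 229 and 290 CPM in dLN Treg icKO libraries (log2 fold change -1.58 ± 0.49 SE, adjusted p = 0.023). In Ctrl Treg cells it had 68.3, 86.1 and 189.5 CPM in CNS Treg Ctrl against 308, 324 and 286 CPM in dLN Treg Ctrl (log2 fold change -1.42 ± 0.48 SE, adjusted p = 0.039). All CNS values lay below all dLN values of the same genotype, though 1 CNS library in each group, icKO replicate 1 and Ctrl replicate 3, stood far above the other 2. Without that icKO library the log2 fold change was -2.44. Tconv cells of icKO mice had 130.3, 66.9, 72.6 and 83.3 CPM in CNS Tconv icKO against 325 and 175 CPM in dLN Tconv icKO (log2 fold change -1.50 ± 0.48 SE, adjusted p = 0.041). Tconv cells of Ctrl mice had 58.0, 78.8, 45.8 and 169.5 CPM in CNS Tconv Ctrl against 213, 286 and 243 CPM in dLN Tconv Ctrl (log2 fold change -1.49 ± 0.44 SE, adjusted p = 0.039). The tissues did not overlap in these groups either.
Fasn, the fatty acid synthase, was called in Ctrl Treg cells, where it had 147, 159 and 147 CPM in CNS Treg Ctrl against 294, 244 and 234 CPM in dLN Treg Ctrl (log2 fold change -0.77 ± 0.26 SE, adjusted p = 0.035), with no overlap. Its call ended whichever of the 6 libraries was left out, with adjusted p of 0.052 to 0.12. Acly, Acaca and Scd1 were not called in any tissue comparison by the main fit. Acaca depended on the 5 CNS Tconv libraries whose names and labels differ. It had 0.0738, 1.5, 7.21 and 12.4 CPM in CNS Tconv Ctrl against 8.67, 13.1 and 8.32 CPM in dLN Tconv Ctrl, a difference of -0.92 ± 0.71 (adjusted p = 0.44) with them and -3.60 (adjusted p = 0.005) without Ctrl replicates 3 and 4, which were the highest 2 of the CNS libraries. Scd1 in Ctrl Treg cells was called by limma alone (3.60, adjusted p = 0.043).

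In the sterol arm, Sc5d (chromosome 9 from 42251595 to 42264256, minus strand), which introduces the C5 double bond late in cholesterol synthesis, was higher in the CNS. It had 108, 112 and 129 CPM in CNS Treg icKO libraries, against 85.8, 73.8 and 76.7 CPM in dLN Treg icKO libraries (log2 fold change 0.56 ± 0.14 SE, adjusted p = 0.0067). In Ctrl Treg cells it had 105, 99.6 and 87.0 CPM in CNS Treg Ctrl against 82.9, 63.0 and 72.6 CPM in dLN Treg Ctrl (log2 fold change 0.42 ± 0.14 SE, adjusted p = 0.038). These groups did not overlap. Tconv cells of icKO mice had 129.9, 100.4, 117 and 109 CPM in CNS Tconv icKO against 74.4 and 74.8 CPM in dLN Tconv icKO (log2 fold change 0.61 ± 0.15 SE, adjusted p = 0.0089). Tconv cells of Ctrl mice had 106, 96.3, 92.6 and 76.8 CPM in CNS Tconv Ctrl against 61.7, 79.6 and 63.8 CPM in dLN Tconv Ctrl (log2 fold change 0.44 ± 0.13 SE, adjusted p = 0.042). In the last pair 1 CNS library lay under the highest dLN library.

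The other sterol arm genes were called in single comparisons. Sqle, the squalene epoxidase, was higher in CNS Treg cells of icKO mice, with 81.2, 49.2 and 90.6 CPM in CNS Treg icKO against 48.1, 52.0 and 32.3 CPM in dLN Treg icKO (log2 fold change 0.74 ± 0.25 SE, adjusted p = 0.033). Nsdhl, a dehydrogenase that removes the C4 methyl groups of sterols, had 28.1, 62.3 and 40.7 CPM in CNS Treg icKO against 27.9, 25.5 and 29.4 CPM in dLN Treg icKO (log2 fold change 0.66 ± 0.23 SE, adjusted p = 0.043). In both genes the lowest CNS library fell within the dLN values, and without CNS Treg icKO replicate 2 the log2 fold change of Nsdhl was 0.32. In Ctrl Tconv cells Ebp had 132, 138, 127 and 101 CPM in CNS Tconv Ctrl against 100.5, 87.3 and 86.7 CPM in dLN Tconv Ctrl (log2 fold change 0.44 ± 0.14 SE, adjusted p = 0.047). Fdft1, the squalene synthase, had 45.4, 55.2, 51.0 and 34.3 CPM in CNS Tconv Ctrl against 31.4, 24.6 and 21.8 CPM in dLN Tconv Ctrl (log2 fold change 0.84 ± 0.26 SE, adjusted p = 0.049). Neither pair overlapped, and Fdft1 shares 18.3% of its exon bases with Ctsb, a cathepsin gene of the other strand. Dhcr7, the last reductase of cholesterol synthesis, ran the other way in icKO Tconv cells, with 39.6, 44.6, 39.1 and 42.1 CPM in CNS Tconv icKO against 60.7 and 63.6 CPM in dLN Tconv icKO (log2 fold change -0.59 ± 0.19 SE, adjusted p = 0.04) and no overlap. None of the 8 mevalonate arm genes was called between tissues by the main fit. Their log2 fold changes ran from -0.12 to 0.46 in icKO Treg, -0.41 to 0.40 in Ctrl Treg, -0.41 to 0.80 in icKO Tconv and -0.22 to 0.71 in Ctrl Tconv cells.

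Of these, Mvd, the mevalonate diphosphate decarboxylase, was called in Ctrl Tconv cells without the 5 CNS Tconv libraries (1.23, adjusted p = 0.011). Acat2, the acetoacetyl-CoA thiolase, was called in icKO Tconv cells by the DESeq2 Wald test (adjusted p = 0.044), by limma (0.0069) and with the compared groups alone (0.027).

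The regulators of synthesis were not called between tissues by the main fit, but Srebf2 lay close to the threshold in 2 comparisons and passed it under several alternatives. Srebf2 differed by 0.53 ± 0.19 (adjusted p = 0.051) in icKO Treg, 0.43 ± 0.19 (adjusted p = 0.12) in Ctrl Treg, 0.27 ± 0.21 (adjusted p = 0.43) in icKO Tconv and 0.57 ± 0.18 (adjusted p = 0.054) in Ctrl Tconv cells. In icKO Treg cells its libraries did not overlap, with 322, 258 and 257 CPM in CNS Treg icKO against 198, 196 and 183 CPM in dLN Treg icKO. In icKO Treg cells Srebf2 was called under 6 alternatives, among them DESeq2 size factors (adjusted p = 0.044), the Wald test (0.025) and limma (0.032). In Ctrl Tconv cells it was called under 5, among them the Wald test (0.021) and limma (0.035). Srebf1 differed by -0.05 ± 0.19 (adjusted p = 0.89), 0.24 ± 0.19 (adjusted p = 0.38), 0.19 ± 0.20 (adjusted p = 0.59) and 0.18 ± 0.18 (adjusted p = 0.55) in the same order. Insig1, an SREBP target whose product retains SCAP, differed by -0.02 ± 0.39 (adjusted p = 0.98), -0.37 ± 0.39 (adjusted p = 0.54), -0.03 ± 0.41 (adjusted p = 0.99) and 0.07 ± 0.36 (adjusted p = 0.95).

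**Figure D3:**
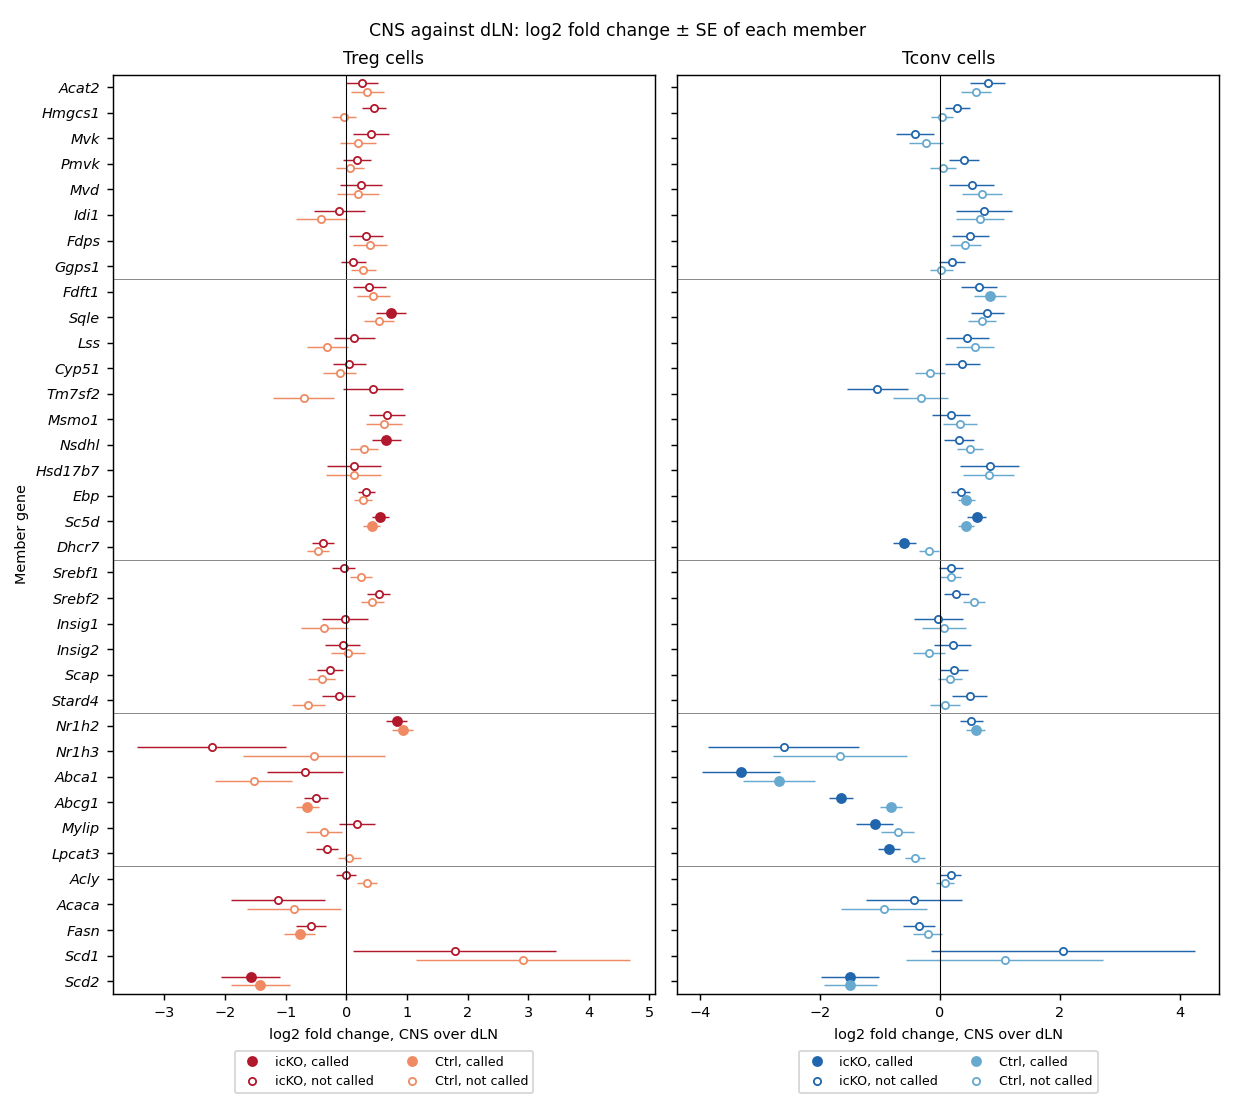
Log2 fold change of CNS over dLN (x axis) ± SE for each of the 36 genes (y axis, grouped by role) in Treg cells (left) and Tconv cells (right), for icKO and Ctrl mice; filled points were called by edgeR. Scd2 lies at or below -1.42 and Sc5d at or above 0.42 in all 4 comparisons, and Abca1 in Tconv cells is the lowest filled point.

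Other cell types' transcripts moved with tissue. Beside the Treg values above, the monocyte and macrophage sums already given were higher in every CNS Treg library than in any dLN Treg library. The 7 microglia markers summed to 1363 to 1891 TPM in CNS Treg and 87.1 to 133 TPM in dLN Treg libraries, where Sall1 was at 0. The 10 cell cycle genes summed to 395 to 963 TPM in CNS Treg and 1359 to 1878 TPM in dLN Treg libraries. In CNS Tconv libraries the microglia sum was 121 to 342 TPM, against 112 to 157 TPM in dLN Tconv libraries, and the 5 Treg markers summed to 506 to 947 TPM, against 221 to 280 TPM. Foxp3, which is among these 5, did not rise with the sum. Its median was 0.155 TPM in CNS Tconv icKO against 0.285 TPM in dLN Tconv icKO. In Ctrl mice its median was 0.33 TPM in CNS Tconv against 0.48 TPM in dLN Tconv libraries. The 7 oligodendrocyte markers summed to 413 to 597 TPM in CNS Treg and 324 to 384 TPM in dLN Treg libraries, without overlap, and to 348 to 546 TPM in CNS Tconv and 461 to 537 TPM in dLN Tconv libraries, with the defining marker Mog at 0 in all groups but CNS Treg Ctrl. The 5 CD8 T and NK cell markers summed to 197 to 323 TPM in CNS Treg icKO, 85.1 to 100.7 TPM in CNS Treg Ctrl and 37.2 to 56.0 TPM in dLN Treg libraries. The part of these transcripts in the results was not tested.

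Few tissue calls held whichever library was left out. Those that did were Nr1h2 and Sc5d in icKO Treg, Nr1h2 in Ctrl Treg, and Abcg1, Abca1 and Lpcat3 in icKO Tconv cells. Each other call ended without at least 1 library, with adjusted p of at most 0.45. Without the 5 CNS Tconv libraries whose names and labels differ, 6 of the 7 calls in Ctrl Tconv cells held, the exception being Fdft1 (adjusted p = 0.056). With 1 CNS library left in icKO Tconv cells, 2 of the 7 held, Abcg1 at -1.33 (adjusted p = 0.0069) and Sc5d at 0.81 (adjusted p = 0.025). Abca1 was then -2.28 (adjusted p = 0.15), Lpcat3 -0.55 (adjusted p = 0.37), Mylip -0.40 (adjusted p = 0.71), Dhcr7 -0.64 (adjusted p = 0.26) and Scd2 -0.93 (adjusted p = 0.56). In icKO Treg cells, which these libraries touch through the pooled spread, Sqle was then at adjusted p = 0.053 and Nsdhl at 0.067.

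Between genotypes, few of the 36 genes differed, and those that did were in Tconv cells of the CNS. There the squalene epoxidase Sqle and the lanosterol demethylase Cyp51 rose in icKO mice, by folds of 2.10 and 1.99, and the exporter Abcg1 fell to 0.541 of its Ctrl level. In Treg cells of either tissue, where the Cre acts, and in dLN Tconv cells none of the 36 was called. The comparison addresses what deleting TNFR2 in Foxp3+ cells during EAE does to these cells and to the Tconv cells beside them.

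In CNS Tconv cells 3 of 36 genes were called, 2 higher and 1 lower, against 3.1% of all genes (1.58% higher and 1.53% lower). In CNS Treg, dLN Treg and dLN Tconv cells 0 of 36 were called, against 0%, 0% and 0% of all genes. edgeR gave an unadjusted p under 0.05 to 4, 0 and 1 of the 36 in these comparisons and to 915, 146 and 197 of the 13500, and the DESeq2 Wald test and limma also called 0 of the 36. With all 26 libraries none of the 36 was called in any of the 4, against 0.0919% of 13054 genes in CNS Tconv cells.

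Sqle (chromosome 15 from 59315077 to 59331192, plus strand) had 90.9, 94.6, 74.8 and 77.6 CPM in CNS Tconv icKO libraries, against 30.3, 41.1, 48.0 and 41.7 CPM in CNS Tconv Ctrl libraries (log2 fold change 1.07 ± 0.21 SE, adjusted p = 0.0096). Cyp51 (chromosome 5 from 4081145 to 4104746, minus strand) had 90.9, 74.3, 76.8 and 108 CPM in CNS Tconv icKO against 56.1, 33.0, 45.7 and 41.0 CPM in CNS Tconv Ctrl (log2 fold change 0.99 ± 0.24 SE, adjusted p = 0.025). For both genes every icKO library exceeded every Ctrl library. In dLN Tconv cells Sqle had 53.3 and 44.0 CPM in dLN Tconv icKO against 23.0, 25.5 and 25.3 CPM in dLN Tconv Ctrl, also without overlap, but the difference of 0.98 ± 0.27 (adjusted p = 1) was not called. In Treg cells Sqle differed by 0.60 ± 0.24 (adjusted p = 0.7) in the CNS and 0.41 ± 0.25 (adjusted p = 1) in the dLN, and Cyp51 by 0.39 ± 0.27 (adjusted p = 0.85) and 0.23 ± 0.27 (adjusted p = 1). Of Cyp51's exon bases 3.8% overlap Akap9 on the other strand.

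The 9 other sterol arm genes differed in CNS Tconv cells by -0.42 to 0.30 and the 8 mevalonate arm genes by -0.22 to 0.61, none called. At the head of the mevalonate arm, Hmgcs1, the synthase of hydroxymethylglutaryl-CoA, was singled out after its values were seen, because its libraries did not overlap. It had 67.8, 56.3, 71.4 and 92.9 CPM in CNS Tconv icKO against 46.7, 45.2, 44.1 and 53.2 CPM in CNS Tconv Ctrl (log2 fold change 0.61 ± 0.17 SE, adjusted p = 0.054). Without the 5 libraries whose names and labels differ it was 0.57 (adjusted p = 0.33). Its promoter is the one with the sterol response element core, which the Cyp51 promoter lacks, and Sqle had no promoter listed. The part of the motif in these differences was not tested. Neither SREBP gene was called. Srebf2 averaged 290.1 ± 34.1 CPM in CNS Tconv icKO against 285 ± 80.5 CPM in CNS Tconv Ctrl (SD, n = 4 each, log2 fold change 0.02 ± 0.17, adjusted p = 0.98). Srebf1 averaged 135 ± 11.8 CPM in CNS Tconv icKO against 129.9 ± 22.7 CPM in CNS Tconv Ctrl (0.05 ± 0.16, adjusted p = 0.91). Their 95% intervals, -0.32 to 0.37 and -0.28 to 0.39 in log2 units, leave room for small differences. Insig1 averaged 27.5 ± 2.60 CPM in CNS Tconv icKO against 19.5 ± 7.49 CPM in CNS Tconv Ctrl (0.50 ± 0.34, adjusted p = 0.44).

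**Figure D4:**
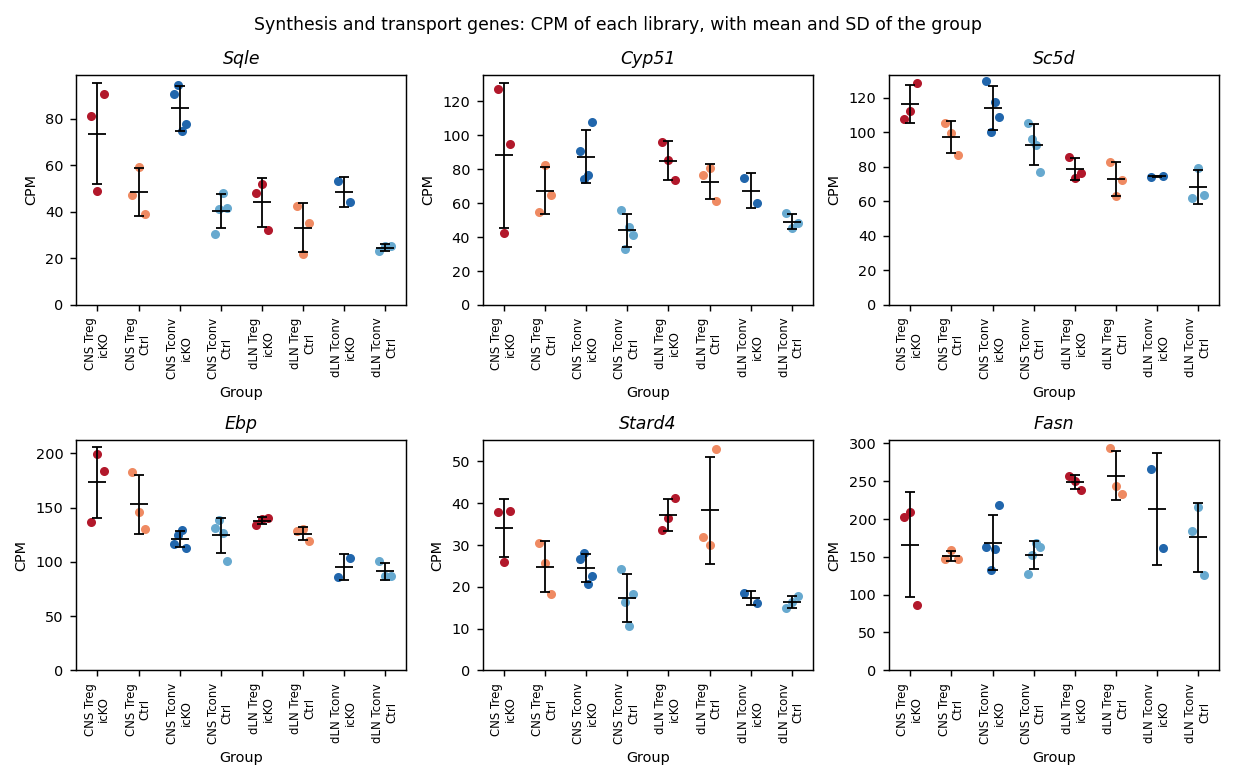
CPM of Sqle, Cyp51, Sc5d, Ebp, Stard4 and Fasn in each library (points) of the 8 groups on the x axis, with the group mean (long bar) and SD (whiskers) on a linear y axis from 0. In CNS Tconv cells the icKO libraries lie above the Ctrl libraries for Sqle (74.8 to 94.7 against 30.3 to 48.0 CPM) and Cyp51 (74.3 to 108 against 33.0 to 56.1 CPM).

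On the LXR side, Abcg1 had 58.6, 42.0, 35.3 and 52.4 CPM in CNS Tconv icKO against 82.0, 83.4, 72.4 and 111 CPM in CNS Tconv Ctrl (log2 fold change -0.89 ± 0.17 SE, adjusted p = 0.008). The highest icKO library lay below the lowest Ctrl library. The other 5 LXR genes also had negative log2 fold changes, without a call. Abca1 had 11.6, 2.52, 4.87 and 3.76 CPM in CNS Tconv icKO against 5.02, 10.1, 7.36 and 34.3 CPM in CNS Tconv Ctrl, overlapping (log2 fold change -1.30 ± 0.57, adjusted p = 0.23). Nr1h2 averaged 143 ± 12.1 CPM in CNS Tconv icKO against 156 ± 41.2 CPM in CNS Tconv Ctrl (-0.12 ± 0.15, adjusted p = 0.72). Nr1h3 averaged 0.450 ± 0.109 CPM in CNS Tconv icKO against 1.18 ± 1.17 CPM in CNS Tconv Ctrl (-1.37 ± 1.11, adjusted p = 0.54). The median over the 6 was -0.74, and 4 of the 6 had an unadjusted p under 0.05, against 2437 of all 13500 genes. In the other populations Abcg1 differed by 0.03 ± 0.20 (adjusted p = 1) in CNS Treg, -0.12 ± 0.20 (adjusted p = 1) in dLN Treg and -0.05 ± 0.22 (adjusted p = 1) in dLN Tconv cells. The fatty acid synthesis genes Acly, Acaca, Fasn, Scd1 and Scd2 were not called between genotypes in any population, with log2 fold changes of -0.90 to 0.62 in CNS Tconv cells.

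Abcg1 and Sqle kept their calls whichever CNS Tconv library was left out, while Cyp51 lost its call without Ctrl replicate 2 or 3 or icKO replicate 1, 3 or 4, with adjusted p of 0.051 to 0.079. Without the 5 libraries whose names and labels differ, 2 Ctrl libraries and 1 icKO library remained and none of the 36 was called: Abcg1 was -0.49 (adjusted p = 0.37), Sqle 1.36 (adjusted p = 0.086) and Cyp51 1.04 (adjusted p = 0.22). Beside these results, the 5 Treg markers summed to 758 to 947 TPM in CNS Tconv icKO and 506 to 677 TPM in CNS Tconv Ctrl libraries, without overlap. Foxp3 itself was at most 0.19 TPM in icKO and 0.62 TPM in Ctrl. The 10 cell cycle genes summed to 602 to 886 TPM in icKO and 336 to 675 TPM in Ctrl, and the 10 monocyte and macrophage markers to 46.8 to 328 TPM and 5.67 to 240.2 TPM, both overlapping. Tnfrsf1b itself was higher in icKO, with 88.7 to 118 TPM in CNS Tconv icKO and 53.0 to 77.1 TPM in CNS Tconv Ctrl (log2 fold change 0.72, adjusted p = 0.0091). The part of any of these in the differences was not tested.

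CNS Treg libraries of a group varied more than most. The median coefficient of variation of the 36 genes within a group was 30.4% in CNS Treg icKO and 24.6% in CNS Treg Ctrl, 12.3% in CNS Tconv icKO and 28% in CNS Tconv Ctrl, and 12.4% to 14.4% in the 4 dLN groups. Insig1 had 38.0, 14.8 and 22.7 CPM in CNS Treg icKO against 6.60, 23.6 and 20.9 CPM in CNS Treg Ctrl, which overlapped (log2 fold change 0.56 ± 0.39, adjusted p = 0.84). Of the 19 mevalonate and sterol arm genes, 11 were lowest in replicate 2 of CNS Treg icKO, and 12 were lowest in replicate 3 of CNS Treg Ctrl. In each other group the most in any library was 8 to 10, so such counts are not particular to CNS Treg cells. Srebf2 differed by 0.29 ± 0.19 (adjusted p = 0.83) in CNS Treg, 0.19 ± 0.19 (adjusted p = 1) in dLN Treg and 0.32 ± 0.21 (adjusted p = 1) in dLN Tconv cells, and Srebf1 by -0.36 ± 0.19 (adjusted p = 0.76), -0.07 ± 0.19 (adjusted p = 1) and 0.05 ± 0.21 (adjusted p = 1). Nr1h2 differed by -0.20 ± 0.17 (adjusted p = 0.92), -0.10 ± 0.17 (adjusted p = 1) and -0.05 ± 0.20 (adjusted p = 1), and Abca1 by 0.04 ± 0.63 (adjusted p = 1), -0.81 ± 0.62 (adjusted p = 1) and -0.67 ± 0.71 (adjusted p = 1). None of these differences was called. Beside the CNS Treg values, the 5 CD8 T and NK cell markers summed to 197 to 323 TPM in icKO and 85.1 to 100.7 TPM in Ctrl libraries, without overlap. In CNS Treg cells 0 of these 5 were called between genotypes, and 1 was called higher in the interaction of genotype with cell type. Their part in the results was not tested.

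**Figure D5:**
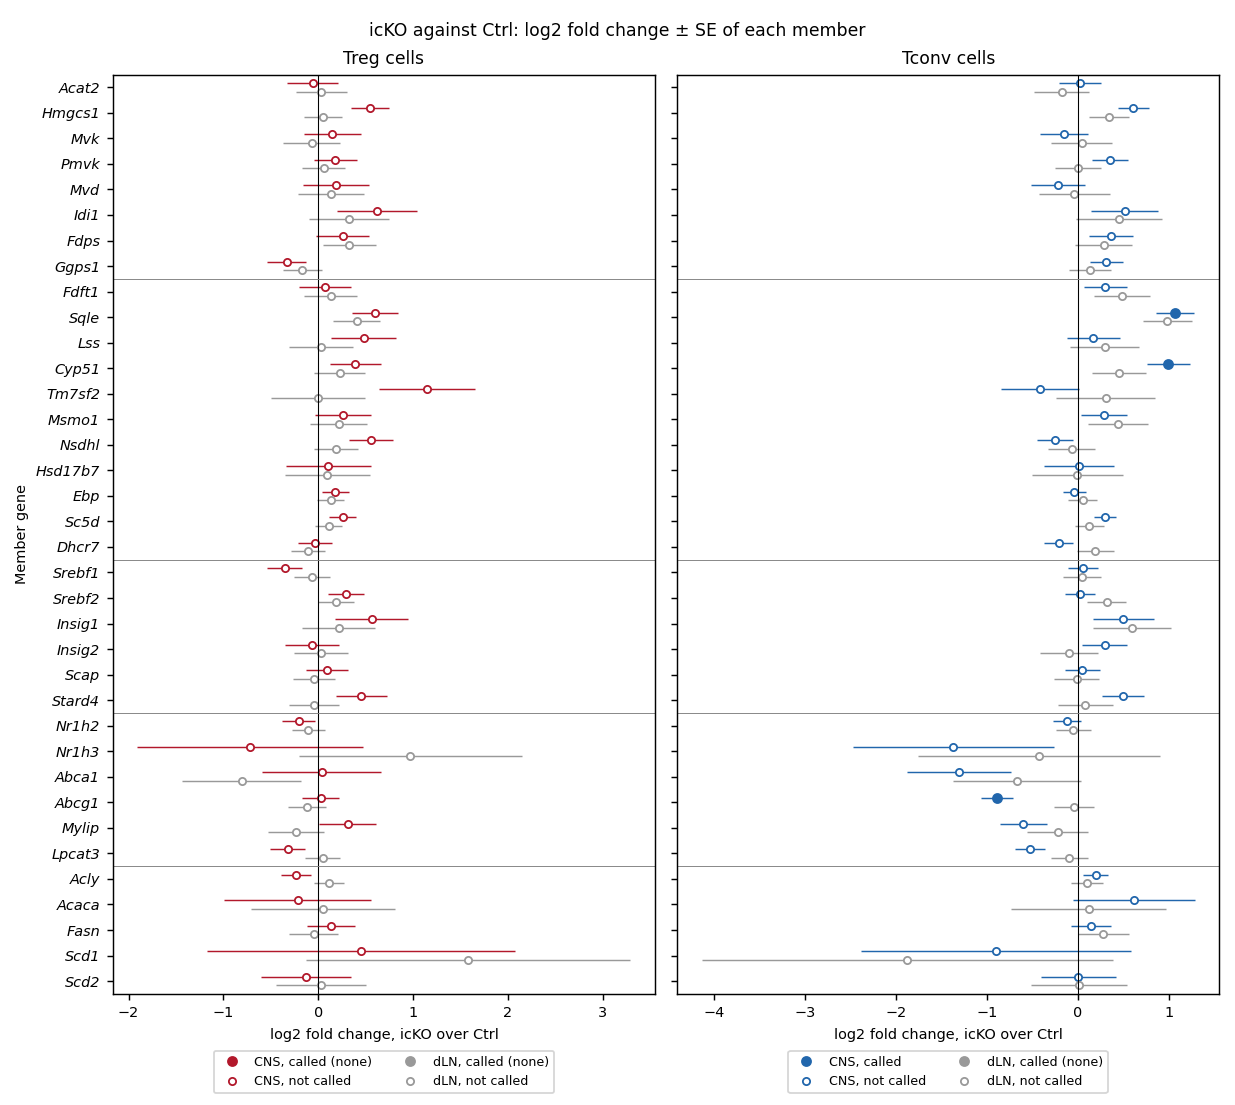
Log2 fold change of icKO over Ctrl (x axis) ± SE for each of the 36 genes (y axis, grouped by role) in Treg cells (left) and Tconv cells (right), for CNS and dLN; filled points were called by edgeR. The 3 filled points are Sqle at 1.07, Cyp51 at 0.99 and Abcg1 at -0.89, all in CNS Tconv cells.

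Whether the genotype difference itself differed between Treg and Tconv cells of the CNS was tested as an interaction, and 0 of the 36 were called, against 0.178% of all genes (0.111% higher and 0.0667% lower). edgeR gave an unadjusted p under 0.05 to 5 of the 36 and to 2026 of the 13500. Abcg1 came closest, with an interaction of 0.91 ± 0.26 (adjusted p = 0.11) in log2 units, and the DESeq2 Wald test called it (0.91, adjusted p = 0.029). Without the 5 CNS Tconv libraries the edgeR interaction was 0.51 (adjusted p = 0.44). The interaction of tissue with cell type in Ctrl mice called 0 of the 36, against 3.67% of all genes (2.55% higher and 1.12% lower). None of the 36 had an unadjusted p under 0.05, beside 2455 of the 13500. The interaction of tissue with genotype in Tconv cells called 0 of the 36, against 0% of all genes. There 1 of the 36, Abcg1 (-0.84 ± 0.28, adjusted p = 0.38), had an unadjusted p under 0.05, beside 1101 of the 13500. The genotype difference in CNS Tconv cells is thus not shown to differ from that of Treg cells or of dLN Tconv cells. DESeq2 and limma called none of the 36 in either interaction with tissue.

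Between cell types, Treg cells of the dLN carried more Stard4 and Ebp and less Mylip and Lpcat3 than Tconv cells, in both genotypes. In the CNS of icKO mice Abca1, Abcg1 and Ebp were higher in Treg cells. In the CNS of Ctrl mice Pmvk was higher and Mylip and Lss were lower in Treg cells. In dLN cells 4 of 36 were called in icKO mice, 2 higher and 2 lower, against 9.91% of all genes (5.44% higher and 4.47% lower). In Ctrl mice 4 were called, 2 higher and 2 lower, against 11.5% (6.04% and 5.48%). In CNS cells 3 were called in icKO mice, all higher, against 12.6% (8.38% and 4.2%). In CNS cells of Ctrl mice 3 were called, 1 higher and 2 lower, against 17.9% (10.8% and 7.03%). The member shares of 11.1% in the dLN and 8.33% in the CNS were near or below these backgrounds. With all 26 libraries only Abcg1 in icKO CNS cells was called (adjusted p = 0.032). Beside the dLN values, the 10 cell cycle genes summed to 1359 to 1878 TPM in dLN Treg and 546 to 728 TPM in dLN Tconv libraries, and 9 of the 10 were called higher in each genotype. Their part in these results was not tested.

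Stard4, a carrier of sterol between membranes, had 33.6, 36.6 and 41.3 CPM in dLN Treg icKO libraries, against 18.5 and 16.1 CPM in dLN Tconv icKO libraries (log2 fold change 1.10 ± 0.31 SE, adjusted p = 0.025). In Ctrl mice it had 31.8, 30.0 and 53.1 CPM in dLN Treg Ctrl against 14.8, 16.4 and 17.8 CPM in dLN Tconv Ctrl (log2 fold change 1.23 ± 0.27 SE, adjusted p = 0.0042). All dLN Treg libraries lay above all dLN Tconv libraries. Ebp (chromosome X from 8185329 to 8193512, minus strand) had 134, 139 and 140.5 CPM in dLN Treg icKO against 86.4 and 104 CPM in dLN Tconv icKO (log2 fold change 0.54 ± 0.17 SE, adjusted p = 0.041). In Ctrl mice the values were 128, 130.3 and 119 CPM in dLN Treg Ctrl against 100.5, 87.3 and 86.7 CPM in dLN Tconv Ctrl (log2 fold change 0.46 ± 0.15 SE, adjusted p = 0.043). Neither pair overlapped. Of the 8 dLN calls, those of Stard4 and Lpcat3 in Ctrl mice held whichever library was left out. Without the 5 CNS Tconv libraries, which enter these fits only through the pooled spread, Ebp was at adjusted p = 0.053 in icKO and 0.056 in Ctrl mice and Lpcat3 at 0.055 in icKO mice.

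Mylip (chromosome 13 from 45389742 to 45412022, plus strand) ran the other way in the dLN. It had 31.5, 25.1 and 42.0 CPM in dLN Treg icKO against 83.8 and 65.1 CPM in dLN Tconv icKO (log2 fold change -1.18 ± 0.33 SE, adjusted p = 0.024). In Ctrl mice it had 30.5, 50.9 and 34.7 CPM in dLN Treg Ctrl against 73.6, 102 and 84.6 CPM in dLN Tconv Ctrl (log2 fold change -1.16 ± 0.30 SE, adjusted p = 0.014). Lpcat3 (chromosome 6 from 124663027 to 124704418, plus strand) had 71.6, 75.3 and 68.6 CPM in dLN Treg icKO against 109.5 and 116 CPM in dLN Tconv icKO (log2 fold change -0.65 ± 0.20 SE, adjusted p = 0.044). All Treg libraries lay below all Tconv libraries for both genes. In Ctrl mice Lpcat3 had 75.2, 69.4 and 64.1 CPM in dLN Treg Ctrl against 124, 114 and 123 CPM in dLN Tconv Ctrl (log2 fold change -0.79 ± 0.18 SE, adjusted p = 0.0065), also without overlap. Nr1h2 had log2 fold changes of -0.55 ± 0.19 (adjusted p = 0.074) in icKO and -0.50 ± 0.17 (adjusted p = 0.07) in Ctrl mice, which did not pass. Abcg1 differed by -0.36 ± 0.22 (adjusted p = 0.35) and -0.29 ± 0.20 (adjusted p = 0.39), and Abca1 by -0.43 ± 0.69 (adjusted p = 0.78) and -0.29 ± 0.62 (adjusted p = 0.85). Nr1h3 differed by 1.85 ± 1.40 (adjusted p = 0.48) and 0.45 ± 1.17 (adjusted p = 0.88), and none of these was called by the main fit. Nr1h2 was called under 3 alternatives in icKO and 4 in Ctrl mice, among them limma (adjusted p = 0.0021 and 0.0044). Nr1h3 in icKO mice was called with the compared groups alone (adjusted p = 0.0041). Pmvk, higher in Treg cells, was called under 3 alternatives in icKO and 4 in Ctrl mice, among them limma (adjusted p = 0.0091 and 0.005).

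In the CNS of icKO mice, Abcg1 had 88.7, 77.9 and 77.8 CPM in CNS Treg icKO against 58.6, 42.0, 35.3 and 52.4 CPM in CNS Tconv icKO (log2 fold change 0.79 ± 0.18 SE, adjusted p = 0.0056). Abca1 had 40.8, 22.4 and 15.9 CPM in CNS Treg icKO against 11.6, 2.52, 4.87 and 3.76 CPM in CNS Tconv icKO (log2 fold change 2.20 ± 0.61 SE, adjusted p = 0.018). Ebp had 136, 199.6 and 184 CPM in CNS Treg icKO against 117, 125, 129 and 113 CPM in CNS Tconv icKO (log2 fold change 0.52 ± 0.14 SE, adjusted p = 0.013). In all 3 genes the lowest Treg library lay above the highest Tconv library. Without the 5 libraries whose names and labels differ the calls ended, with Abcg1 at 0.46 (adjusted p = 0.35), Abca1 at 1.17 (adjusted p = 0.46) and Ebp at 0.56 (adjusted p = 0.17). The monocyte and macrophage markers given above were higher in every CNS Treg library than in any CNS Tconv library, and macrophages are known to express Abca1 and Abcg1. The part of these transcripts was not tested. Abcg1 kept its call whichever library was left out, and Ebp and Abca1 did not, with adjusted p of up to 0.092.

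In the CNS of Ctrl mice, Pmvk, the phosphomevalonate kinase, had 19.9, 25 and 18.7 CPM in CNS Treg Ctrl against 9.44, 16.4, 12.8 and 14.2 CPM in CNS Tconv Ctrl (log2 fold change 0.68 ± 0.21 SE, adjusted p = 0.029). Mylip had 35.2, 21.0 and 33.6 CPM in CNS Treg Ctrl against 48.0, 61.8, 43.8 and 59.5 CPM in CNS Tconv Ctrl (log2 fold change -0.83 ± 0.29 SE, adjusted p = 0.047). Neither overlapped. Lss, the lanosterol synthase, had 14.0, 27.1 and 11.0 CPM in CNS Treg Ctrl against 51.0, 36.6, 21.3 and 23.5 CPM in CNS Tconv Ctrl (log2 fold change -0.93 ± 0.32 SE, adjusted p = 0.049), with 1 Treg library inside the Tconv range, and without CNS Treg Ctrl replicate 2 its value was -1.41. Each of these 3 calls ended without at least 1 library, with adjusted p of up to 0.21, and Pmvk was at 0.71 (adjusted p = 0.088) without the 5 CNS Tconv libraries named above. Without them Acaca (2.87, adjusted p = 0.014) and Mvd (-0.97, adjusted p = 0.035) were called as well. Abcg1 (-0.12 ± 0.18, adjusted p = 0.7), Abca1 (0.86 ± 0.59, adjusted p = 0.34), Nr1h2 (-0.17 ± 0.16, adjusted p = 0.53) and Nr1h3 (1.58 ± 1.11, adjusted p = 0.36) did not pass between CNS cell types of Ctrl mice. Of the regulators, Srebf2 differed between cell types by -0.06 ± 0.18 (adjusted p = 0.89) in icKO CNS, -0.33 ± 0.18 (adjusted p = 0.22) in Ctrl CNS, -0.32 ± 0.21 (adjusted p = 0.41) in icKO dLN and -0.19 ± 0.19 (adjusted p = 0.62) in Ctrl dLN cells. In the same order Srebf1 differed by -0.46 ± 0.18 (adjusted p = 0.098), -0.05 ± 0.18 (adjusted p = 0.89), -0.22 ± 0.21 (adjusted p = 0.59) and -0.10 ± 0.19 (adjusted p = 0.82). Insig1 differed by -0.13 ± 0.36 (adjusted p = 0.88), -0.19 ± 0.36 (adjusted p = 0.77), -0.13 ± 0.43 (adjusted p = 0.92) and 0.24 ± 0.39 (adjusted p = 0.78), and none of the 3 was called.

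Across the 12 comparisons 17 of the 36 genes were called at least once by the main fit and 19 in none. The share of all genes called at least once was not counted, so these numbers are no result about the pathway. The 19 include Srebf1, Srebf2, Insig1, Nr1h3 and, of the mevalonate arm, all but Pmvk. Of the 41 calls, the 3 that held under each alternative were Nr1h2 in both Treg tissue comparisons and Abcg1 between tissues in icKO Tconv cells. None of the 41 changed sign under any alternative. A further 36 results, over 23 genes, were called under at least 1 alternative and not in the main fit. Such results were not counted over all genes either.

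A list of 34 further genes of sterol handling and lipid synthesis placed these results in the wider pathway. Between tissues 7 of 34 were called in icKO Treg cells (6 higher, 1 lower), 8 in Ctrl Treg cells (7 higher, 1 lower), 4 in icKO Tconv cells (all lower) and 4 in Ctrl Tconv cells (1 higher, 3 lower). These are 20.6%, 23.5%, 11.8% and 11.8% of the list, beside 22.5%, 21.8%, 14.1% and 8.9% of all genes, and so near the background. Npc2, which passes cholesterol out of lysosomes, was higher in CNS Treg cells, with 414 ± 113 CPM in CNS Treg icKO against 175 ± 8.46 CPM in dLN Treg icKO (SD, n = 3 each, log2 fold change 1.24 ± 0.14, adjusted p = 5e-06). In Ctrl mice it averaged 385 ± 48.8 CPM in CNS Treg Ctrl against 159.9 ± 9.07 CPM in dLN Treg Ctrl (log2 fold change 1.27 ± 0.14, adjusted p = 4.2e-06). Ch25h, which makes the LXR ligand and SREBP inhibitor hydroxycholesterol, averaged 11.0 ± 10.8 CPM in CNS Treg icKO and 13.9 ± 11.2 CPM in CNS Treg Ctrl, and had no count in any dLN Treg library of either genotype. Both genes are known to be expressed by macrophages, whose markers were higher in the same libraries, as given above, and their part was not tested. Acss2, the cytosolic acetyl-CoA synthetase, was also higher in CNS Treg cells, with log2 fold changes of 0.68 ± 0.19 (adjusted p = 0.014) in icKO and 0.81 ± 0.19 (adjusted p = 0.005) in Ctrl mice.

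In Tconv cells Lipa, the lysosomal acid lipase that frees cholesterol from its esters, was lower in the CNS, with 100.2 ± 6.91 CPM in CNS Tconv icKO against 189 ± 12.4 CPM in dLN Tconv icKO (SD, n = 4 and 2, log2 fold change -0.91 ± 0.12, adjusted p = 3.1e-05). In Ctrl mice it averaged 134 ± 18.3 CPM in CNS Tconv Ctrl against 184 ± 7.15 CPM in dLN Tconv Ctrl (n = 4 and 3, -0.45 ± 0.11, adjusted p = 0.015). Without the 5 CNS Tconv libraries the tissue differences were -0.90 (adjusted p = 0.0087) in icKO and -0.41 (adjusted p = 0.049) in Ctrl mice. It was the 1 gene of the 34 called between genotypes, in CNS Tconv cells, with 100.2 ± 6.91 CPM in CNS Tconv icKO against 134 ± 18.3 CPM in CNS Tconv Ctrl (n = 4 each, -0.42 ± 0.10, adjusted p = 0.033), 2.94% of the list beside 3.1% of all genes. That call ended without the 5 libraries (-0.44, adjusted p = 0.23). Between cell types 8 of 34 were called in icKO dLN (2 higher, 6 lower), 9 in Ctrl dLN (2 higher, 7 lower), 7 in icKO CNS (5 higher, 2 lower) and 6 in Ctrl CNS (3 higher, 3 lower). These are 23.5%, 26.5%, 20.6% and 17.6% of the list, beside 9.91%, 11.5%, 12.6% and 17.9% of all genes. Npc2 was lower in dLN Treg than dLN Tconv cells, with log2 fold changes of -1.09 ± 0.15 (adjusted p = 6.5e-05) in icKO and -1.09 ± 0.14 (adjusted p = 1.8e-05) in Ctrl mice. Acss2 was also lower there, with -1.26 ± 0.21 (adjusted p = 0.00044) and -1.60 ± 0.20 (adjusted p = 1e-05). Soat1, which esterifies cholesterol for storage, was higher in CNS Treg than CNS Tconv cells, with log2 fold changes of 0.72 ± 0.18 (adjusted p = 0.0099) in icKO and 1.24 ± 0.18 (adjusted p = 6.4e-05) in Ctrl mice. Without the 5 CNS Tconv libraries it was 0.87 (adjusted p = 0.11) and 1.32 (adjusted p = 0.00068). All 10 monocyte and macrophage markers were called higher in the same comparisons, and their part was not tested. In the interaction of tissue with cell type in Ctrl mice, 2 of the 34 (5.88%, beside 3.67% of all genes) were called, Npc2 at 1.10 ± 0.19 (adjusted p = 0.0021) and Acss2 at 0.99 ± 0.26 (adjusted p = 0.037) (1.02, adjusted p = 0.01, and 1.2, adjusted p = 0.023, without the 5 CNS Tconv libraries), so their CNS over dLN differences in Treg and Tconv cells differed.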

How the data were processed

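RNA of the purified cells was made into SMART-Seq v4 and Nextera libraries, per the labels' protocols. Reads went through FastQC, Trimmomatic, STAR 2.5.3a and RSEM 1.2.28 on mm10, per the submitters' processing notes. The authors deposited expected counts, the read numbers RSEM assigned to each gene, with TPM and FPKM columns per the file headers. TPM, scaled to length and library total, is used here to compare levels between genes, and the deposited FPKM values were not used.

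Expected counts were rounded and fitted with edgeR 4.0.16 in R 4.3.3 with TMM factors, filterByExpr, 8 group means, quasi-likelihood test, Benjamini-Hochberg over all genes, threshold 0.05. SE is the log2 fold change over the square root of F. Common dispersion was 0.142 with 25 libraries and 0.364 with 26. Depth was 12.4 to 18.5 M counts. Counts were lowest for Tm7sf2, Scd1 and Nr1h3, with at most 76, 111 and 171 in any library. Figures were drawn in Python 3.11.15 (matplotlib 3.10.9, pandas 2.3.3). Gene positions and exon overlaps are those of GENCODE for GRCm38. The procedure was tested on simulated data.

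Members and lists were chosen with earlier results of these data known. In each comparison values by library were given for at most 4 called genes per role group and direction with the smallest p, for uncalled genes by range and count, and throughout for Srebf1, Srebf2, Insig1, Nr1h2, Nr1h3, Abca1 and Abcg1. Of the 34 further genes, those named are among the 4 called with the smallest p in a comparison. The main fit has no replicate block. Alternatives were all 26 libraries, DESeq2 size factors, no filter, 10 CPM in 3 libraries, a replicate block (also within each genotype), the compared groups alone, limma 3.58.1 voom with quality weights, the DESeq2 1.42.0 Wald test, leaving out 5 CNS Tconv libraries, and leaving out each library in turn.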

Additional observations from a re-analysis of the deposited data

Results flagged for a closer look

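Outlying libraries were looked for in the 2 groups of 4, in 72 sets of values, of which chance alone sets apart about 1 in 20. Acaca had 11.2 CPM in CNS Tconv icKO replicate 4, far from the 6.75 to 7.50 CPM of the other 3. Scd1 had 1.26 CPM in CNS Tconv icKO replicate 2, against 0 to 0.0676 CPM in the other 3, values that rest on few counts. Neither gene was called between genotypes in these cells.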

How the results depend on the processing

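The number of the 36 genes called varied with the processing, and the cause was not tested. With all 26 libraries it was 0 for icKO against Ctrl in CNS Tconv cells, 1 and 1 between tissues in icKO and Ctrl Treg cells, 3 and 0 between tissues in icKO and Ctrl Tconv cells, 1 and 0 between cell types in icKO and Ctrl CNS cells, and 0 and 0 in icKO and Ctrl dLN cells. The share of all genes called moved too: it was 0.0919%, 5.15%, 5.75%, 9.24%, 1.1%, 3.42%, 6.08%, 3.95% and 1.8% in the comparisons just listed, in that order. That fit put the all-gene median log2 fold change at 0.22 between tissues in icKO Tconv cells, at 0.30 between cell types in icKO dLN cells and at -0.36 between genotypes in dLN Tconv cells. With the compared groups alone it was 13 and 0 between tissues in icKO and Ctrl Tconv cells, 0 between cell types in Ctrl CNS cells, and 8 and 10 in icKO and Ctrl dLN cells, with 21.5%, 2.49%, 8.47%, 26.8% and 25.4% of all genes called. Without a filter it was 4 between tissues in Ctrl Tconv cells, 1 between cell types in Ctrl CNS cells and 2 in icKO dLN cells, with 6.17%, 12.9% and 7% of all genes. With limma it was 12 between tissues in icKO Tconv cells, 0 and 10 between cell types in Ctrl CNS and dLN cells, and 5 between genotypes in CNS Tconv cells, with 26.3%, 14.8%, 27.3% and 3.35% of all genes. The last comparison also had 5 with the DESeq2 Wald test (6.61% of all genes) and with the filter of 10 CPM (5.42%), where Hmgcs1 and Lpcat3 joined Sqle, Cyp51 and Abcg1. DESeq2 size factors gave 1 between cell types in Ctrl CNS cells (17.5% of all genes), and the DESeq2 Wald test gave 1 for the interaction of genotype and cell type (3.17%). Without the 5 CNS Tconv libraries it was 0 between genotypes in CNS Tconv cells, 2 between tissues in icKO Tconv cells, and 0 and 2 between cell types in icKO CNS and dLN cells, with 1.12%, 4.59%, 4.13% and 9.54% of all genes. Of the 41 calls, 6 passed with all 26 libraries, 39 with DESeq2 size factors, 30 with no filter, 41 with 10 CPM, 24 with the compared groups alone, 35 with limma, 41 with the Wald test and 23 without the 5 libraries.

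Leaving out 1 library at a time gave 2 to 4 called between genotypes in CNS Tconv cells, 2 to 6 and 1 to 6 between tissues in icKO and Ctrl Treg cells, 3 to 6 and 1 to 10 in icKO and Ctrl Tconv cells, 2 to 5 and 0 to 3 between cell types in icKO and Ctrl CNS cells, 0 to 2 and 2 to 4 in icKO and Ctrl dLN cells, and 0 to 1 for the interaction of genotype and cell type. Leaving out a library of icKO dLN Tconv cells left 1, which was assumed to vary like the other groups. No called gene changed sign. The shares of all genes called in these fits were not counted, so the ranges cannot be set beside a background.

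With a replicate block 33 of the 41 calls passed. The counts became 1 between cell types in Ctrl CNS cells and 2 in icKO dLN cells, with 17.6% and 8.7% of all genes called. With the block set within each genotype 30 of 38 passed. The counts became 3 between tissues in icKO Treg cells and 2 between cell types in icKO dLN cells, with 22.7% and 8.89% of all genes. The labels do not tie a replicate number to an animal, and the deviations of same-numbered libraries from their group means correlated at -0.145 to 0.113, not above 0.1 in every pair of any comparison. With so few libraries in a group, such correlations cannot show whether samples were paired. The main fit takes no pairing from the numbers, and the meaning of a call lost under the block was not tested.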
